A study of Homo sapiens with 6 samples.

Results

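The receptors described here guide B cells through lymph nodes and other lymphoid tissue: CXCR4, CXCR5, CCR7, CCR6, S1PR1, S1PR2 and GPR183. These 7 genes, of 19775 with a symbol on the array, are read by 11 of its 54613 non-control probe sets, and all 11 are reported. A probe set is a group of short oligonucleotides on the array that together read 1 transcript. CXCR4 has 3 of them, CXCR5 and S1PR2 have 2 each, and CCR7, CCR6, S1PR1 and GPR183 have 1 each. The genes were chosen by name and not by a rule on their measured values, but with earlier results of these data known.

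All 6 samples are L428, an established line derived from Hodgkin lymphoma, in which the tumour cells descend from B cells but have lost most of the B cell programme. In 3 samples the cells received a miR-9 LNA inhibitor by nucleofection, and in 3 they received a scrambled LNA by the same route. A locked nucleic acid (LNA) inhibitor is a short modified oligonucleotide that pairs with a microRNA and blocks it. RNA was taken at 9 h from every sample and read on Affymetrix HG-U133 Plus 2.0 arrays, so both groups share the cell line, the transfection and the time. A single cell line was used. The labels number the replicates 1 to 3 in each group and do not say which came from cultures of their own. The p-values therefore cover only the spread between these samples, which may be technical.

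These receptors are G protein-coupled receptors with different ligands and different roles in B cell positioning. CXCR4 follows CXCL12 and holds cells in bone marrow and in the dark zone of germinal centres, CXCR5 follows CXCL13 into follicles, CCR7 follows CCL19 and CCL21 into T cell zones, and CCR6 follows CCL20. S1PR1 senses sphingosine 1-phosphate (S1P) and lets lymphocytes leave tissue for blood and lymph, S1PR2 senses the same lipid and restrains migration, and GPR183 (EBI2) follows oxysterols such as 7α,25-dihydroxycholesterol to the outer follicle. CCR7 is a known feature of Hodgkin tumour cells. The study's treatment blocks miR-9, which pairs with its target mRNAs mainly through its seed, bases 2 to 8.

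The mature miR-9 strand is shown because it is what the inhibitor was made against, 5′ to 3′, with the seed in capitals, from RefSeq (GRCh38.p14). The same 23 bases are encoded at 3 loci, chr1:156420392-156420414 (minus strand, MIR9-1), chr5:88666902-88666924 (minus strand, MIR9-2) and chr15:89368032-89368054 (plus strand, MIR9-3).
hsa-miR-9-5p: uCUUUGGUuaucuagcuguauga

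The stretches before the start sites of CXCR4, S1PR1 and GPR183 are shown because CXCR4 and S1PR1 varied most between replicate numbers and GPR183 had the smallest p between the groups. Each is the 250 bases before the start of the gene in RefSeq (GRCh38.p14), 5′ to 3′ on the gene's strand, taken at the 5′-most of 3 listed starts for CXCR4. The RefSeq promoter table matched 6 of the 7 genes, and CCR7 had no entry. Capitals mark the motifs searched on both strands: the TATA box (TATAAA), the GC box (GGGCGG) and the CACCC box (CACCC), where overlapping matches are each counted.
CXCR4, chr2:136118150-136118399, minus strand: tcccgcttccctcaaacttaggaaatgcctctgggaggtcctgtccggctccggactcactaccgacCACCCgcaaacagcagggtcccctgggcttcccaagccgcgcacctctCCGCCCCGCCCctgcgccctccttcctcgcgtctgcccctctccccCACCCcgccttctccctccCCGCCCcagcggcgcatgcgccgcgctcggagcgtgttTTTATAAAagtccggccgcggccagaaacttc
S1PR1, chr1:101236769-101237018, plus strand: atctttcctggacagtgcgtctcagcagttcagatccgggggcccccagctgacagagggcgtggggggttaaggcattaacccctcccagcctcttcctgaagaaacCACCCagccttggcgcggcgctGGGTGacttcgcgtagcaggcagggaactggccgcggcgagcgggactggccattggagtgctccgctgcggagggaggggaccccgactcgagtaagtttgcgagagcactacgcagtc
GPR183, chr13:99307400-99307649, minus strand: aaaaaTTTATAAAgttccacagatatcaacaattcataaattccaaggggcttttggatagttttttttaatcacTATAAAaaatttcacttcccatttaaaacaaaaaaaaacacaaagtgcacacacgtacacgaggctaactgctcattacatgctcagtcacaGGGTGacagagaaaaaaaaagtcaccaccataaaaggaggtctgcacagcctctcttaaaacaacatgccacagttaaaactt

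The stretch before CXCR4 held 68.0% G and C, 2 overlapping TATA matches, the nearest beginning 30 bases before the start, 3 GC boxes and 2 CACCC matches. The stretch before S1PR1 held 64.4% G and C, 2 CACCC matches and neither of the other motifs. The stretch before GPR183 held 34.4% G and C, 3 TATA matches, the nearest beginning 175 bases before the start, and 1 CACCC match. Of 35116 promoters in the table, 10.7% held TATAAA in the same window, 42.6% held GGGCGG and 54.7% held CACCC. A match describes the letters and does not show a bound site.

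The deposited values are log2 expression from robust multi-array averaging (RMA), and a difference of 1 is a 2-fold difference. A level filter at 7.11, the median of the mean levels of all non-control probe sets, kept 27307 of them, and no detection call was used. Of the 11 receptor probe sets 8 passed, covering 6 of the 7 genes. CXCR4, CCR7, GPR183 and S1PR1 lay well above the filter, S1PR2 227684_at lay above it at a mean of 7.76, CXCR5 216734_s_at lay near it, and CXCR5 206126_at, CCR6 206983_at and S1PR2 208537_at lay below it. Levels of different probe sets depend on their own oligonucleotides and are not ranked against each other. A positive difference means a higher level in the miR-9 LNA samples, and differences were tested with limma, with p-values adjusted over all tested probe sets. Errors of group means are SDs and errors of differences are standard errors (SE), each with n = 3 arrays per group.

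The cell line was checked against marker genes. Of 8 markers of Hodgkin tumour cells 8 passed the level filter, with CD30 (TNFRSF8) at 10.57 ± 0.15 under the miR-9 LNA and 10.45 ± 0.10 in the scrambled group. Of 5 B cell markers read on the array 3 passed (PAX5, CD79A and CD22), with PAX5 at 7.44 ± 0.07 and 7.43 ± 0.14, and MS4A1 and CD79B lay below the filter. Of 7 T and NK cell markers 1 passed (CD5), and of 5 myeloid markers 2 passed (CSF1R and ITGAM), all 3 at mean levels of 7.19 to 7.35. CD79A, at 7.33 ± 0.04 and 7.40 ± 0.03, and CD22, at 7.23 ± 0.06 and 7.29 ± 0.06, lay at similar levels. Passing the filter therefore does not separate these B cell markers from the others.

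Scrambled replicate 1 stood apart from the other arrays. The spike-in dap, a bacterial RNA added as a control, was at 10.19 on it and between 8.06 and 8.67 elsewhere, and the 90th percentile of its levels was 9.28, against 9.45 to 9.57. It was the lowest of the 6 arrays at 44.3% of tested probe sets and at 6 of the 8 receptor probe sets that passed the filter. It was the highest array at CCR6 206983_at, at both CXCR5 probe sets and at S1PR2 208537_at. The group differences of CXCR4, CCR7, S1PR1 and GPR183 are given below with and without it. Without it, the difference was -0.008 at CCR6, -0.017 at CXCR5 206126_at and -0.021 at CXCR5 216734_s_at. For S1PR2 it was then -0.024 at 208537_at and -0.004 at 227684_at, so the receptors that lay lower also moved with this array. The block fits, the shares of the sum of squares and the listed genes are given only with it. Array medians lay between 7.10 and 7.15.

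None of the 7 receptors passed the threshold of an adjusted p under 0.05. In the deposited values CXCR4, CCR7, S1PR1 and GPR183 lay 0.04 to 0.20 higher under the miR-9 LNA and CXCR5, S1PR2 and CCR6 lay 0.02 to 0.06 lower, with the groups overlapping at every receptor probe set. In such bulk samples fewer cells with a transcript and less of it per cell cannot be told apart. After quantile normalization, which gives every array the same distribution of levels, 7 of the 8 tested receptor probe sets turned to or stayed on the lower side and CXCR4 211919_s_at was at 0.02. The larger variation in CXCR4 and S1PR1 lay between replicate numbers and was shared by the arrays of both groups.

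Of the 8 tested receptor probe sets 0 passed, where limma called 0% of the 27307. At a limma unadjusted p under 0.05, 0 of the 8 were found, against 14.4% of all tested probe sets, and after quantile normalization 0 of the 8, against 4.55%. The limma adjusted p of the 8 ran from 0.384 for GPR183 to 0.920 for S1PR1. Of the 8, 6 lay higher, beside 66.9% of all tested probe sets, and their median difference was 0.14, beside 0.06 over all. After quantile normalization 1 of the 8 lay higher, beside 51.5%, with medians of -0.02 and 0.004. The groups failed to overlap at 0 of the 8, beside 22.1% of all tested probe sets, 18.1% with the miR-9 LNA higher and 3.97% with it lower.

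**Figure D1:**
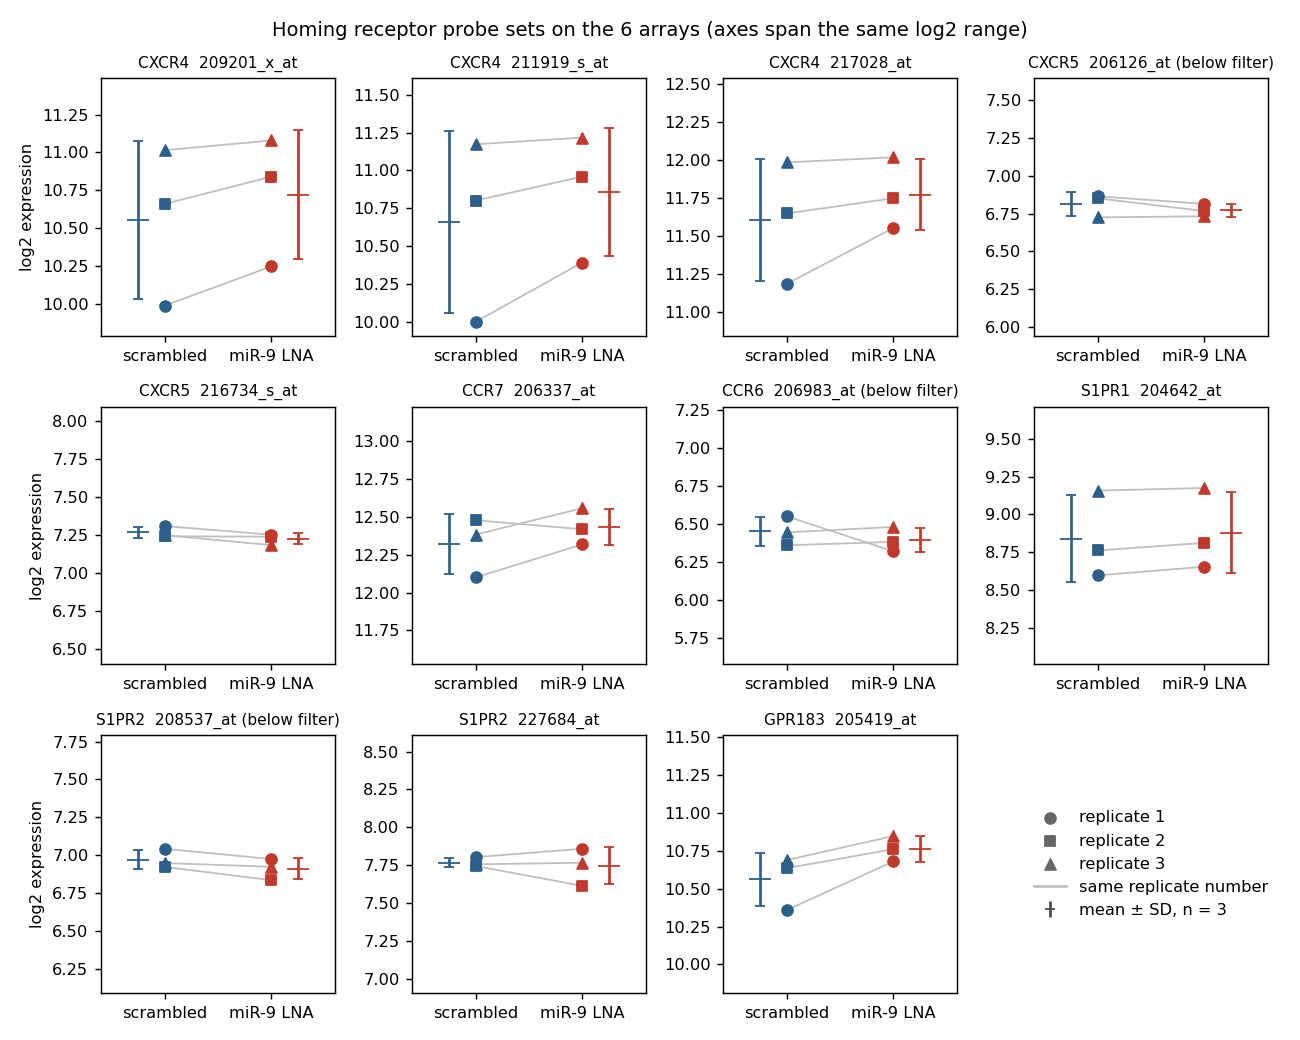
The log2 expression of each receptor probe set is plotted for scrambled LNA (blue) and miR-9 LNA (red) arrays, with marker shape for the replicate number, grey lines joining arrays of the same number, and side bars for the mean ± SD of 3 arrays. The 3 CXCR4 panels and the S1PR1 panel show wide spread within each group with both arrays numbered 3 on top and both numbered 1 at the bottom, and the dim receptors show little spread.

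CXCR4, the receptor for CXCL12, was read by 3 probe sets that moved together across the arrays. At 217028_at CXCR4 was at 11.55, 11.75 and 12.02 on miR-9 LNA replicates 1, 2 and 3 and at 11.18, 11.65 and 11.98 on scrambled replicates 1, 2 and 3. Both arrays numbered 3 were high and both numbered 1 were low, and the groups overlapped over most of their range. The group means at 217028_at were 11.77 ± 0.23 and 11.61 ± 0.40, or 0.17 ± 0.20 apart in log2 (limma adjusted p = 0.705) with a 95% interval from -0.31 to 0.64.

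At 211919_s_at CXCR4 was at 10.39, 10.96 and 11.22 under the miR-9 LNA and at 10.00, 10.80 and 11.17 in the scrambled group, in the order of the replicate labels. The order of the 6 arrays was the same as at 217028_at. The difference was 0.20 ± 0.31 (limma adjusted p = 0.777), with a 95% interval from -0.53 to 0.93. At 209201_x_at CXCR4 was at 10.25, 10.84 and 11.08 against 9.99, 10.66 and 11.01, a difference of 0.17 ± 0.29 (limma adjusted p = 0.796). The suffix x marks a probe set with oligonucleotides that can match other transcripts, so 209201_x_at is the less specific reading. The mean of the 3 CXCR4 probe sets gave a difference of 0.18 (limma adjusted p = 0.733).

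Without scrambled replicate 1 the CXCR4 differences changed sign, to -0.04 at 217028_at, -0.13 at 211919_s_at and -0.12 at 209201_x_at. After quantile normalization they were -0.01, 0.02 and -0.02. The direction of CXCR4 therefore turned at every probe set when scrambled replicate 1 was left out. With the scaling it turned at 217028_at and 209201_x_at, while 211919_s_at fell to 0.02 and kept its sign.

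CCR7, the receptor for CCL19 and CCL21, was bright in every array. CCR7 206337_at was at 12.32, 12.42 and 12.56 under the miR-9 LNA and at 12.10, 12.48 and 12.38 in the scrambled group. Scrambled replicate 1 was the low array, and scrambled replicate 2 lay above miR-9 LNA replicates 1 and 2. The group means were 12.43 ± 0.12 and 12.32 ± 0.20, a CCR7 difference of 0.11 ± 0.11 (limma adjusted p = 0.643) with a 95% interval from -0.15 to 0.37. It was 0.0008 without scrambled replicate 1 and -0.06 after quantile normalization.

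CXCR5, the follicle-homing receptor for CXCL13, lay close to the level filter or below it. CXCR5 216734_s_at was at 7.25, 7.24 and 7.18 under the miR-9 LNA and at 7.31, 7.24 and 7.25 in the scrambled group. The 6 arrays spanned 0.13, and the difference was -0.04 ± 0.06 (limma adjusted p = 0.740) with a 95% interval from -0.18 to 0.09. CXCR5 206126_at ranged from 6.73 to 6.86 over the 6 arrays, with a difference of -0.04 ± 0.06. CXCR5 216734_s_at lay lower under the miR-9 LNA in 3 of 3 same-numbered pairs, by 0.003 in the smallest, beside 10.0% of all tested probe sets.

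CCR6, the receptor for CCL20, lay below the level filter. CCR6 206983_at ranged from 6.32 to 6.48 under the miR-9 LNA and from 6.36 to 6.55 in the scrambled group, a difference of -0.06 ± 0.07 read from a limma fit of all 54613 probe sets (adjusted p = 0.784). In that fit limma called 0% of the probe sets. At levels below the filter a difference can be understated, and these values do not show whether CXCR5 or CCR6 mRNA was absent.

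S1PR1, the egress receptor for sphingosine 1-phosphate, was at 8.65, 8.81 and 9.17 under the miR-9 LNA and at 8.60, 8.76 and 9.16 in the scrambled group. Arrays with the same number lay within 0.06 of each other, while the arrays numbered 3 lay above the other 4. The group means of S1PR1 204642_at were 8.88 ± 0.27 and 8.84 ± 0.29, a difference of 0.04 ± 0.17 (limma adjusted p = 0.920) with a 95% interval from -0.36 to 0.45. The S1PR1 difference was -0.08 without scrambled replicate 1, -0.11 without miR-9 LNA replicate 3 and -0.08 after quantile normalization.

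S1PR2, which restrains migration in response to the same lipid, was read by 1 probe set above the level filter and 1 below it. S1PR2 227684_at was at 7.86, 7.61 and 7.77 under the miR-9 LNA and at 7.80, 7.74 and 7.76 in the scrambled group. The miR-9 LNA arrays lay on both sides of the scrambled arrays, and the difference was -0.02 ± 0.08 (limma adjusted p = 0.904). S1PR2 208537_at, below the filter, ranged from 6.83 to 7.04 over the 6 arrays with a difference of -0.06 ± 0.06.

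GPR183, the oxysterol receptor, had the smallest p of the 7 genes. GPR183 205419_at was at 10.68, 10.76 and 10.85 under the miR-9 LNA and at 10.36, 10.64 and 10.69 in the scrambled group. Scrambled replicate 3 lay 0.009 above the lowest miR-9 LNA array, so the groups overlapped by that amount, and scrambled replicate 1 was lowest. The group means were 10.76 ± 0.08 and 10.56 ± 0.18, a GPR183 difference of 0.20 ± 0.10 (limma adjusted p = 0.384) with a 95% interval from -0.03 to 0.43. A two-sided exact permutation test of the 3 against 3 arrays gave p = 0.2, where the smallest that this design allows is 0.1. The GPR183 difference was 0.10 without scrambled replicate 1, and it was -0.0008 after quantile normalization.

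**Figure D2:**
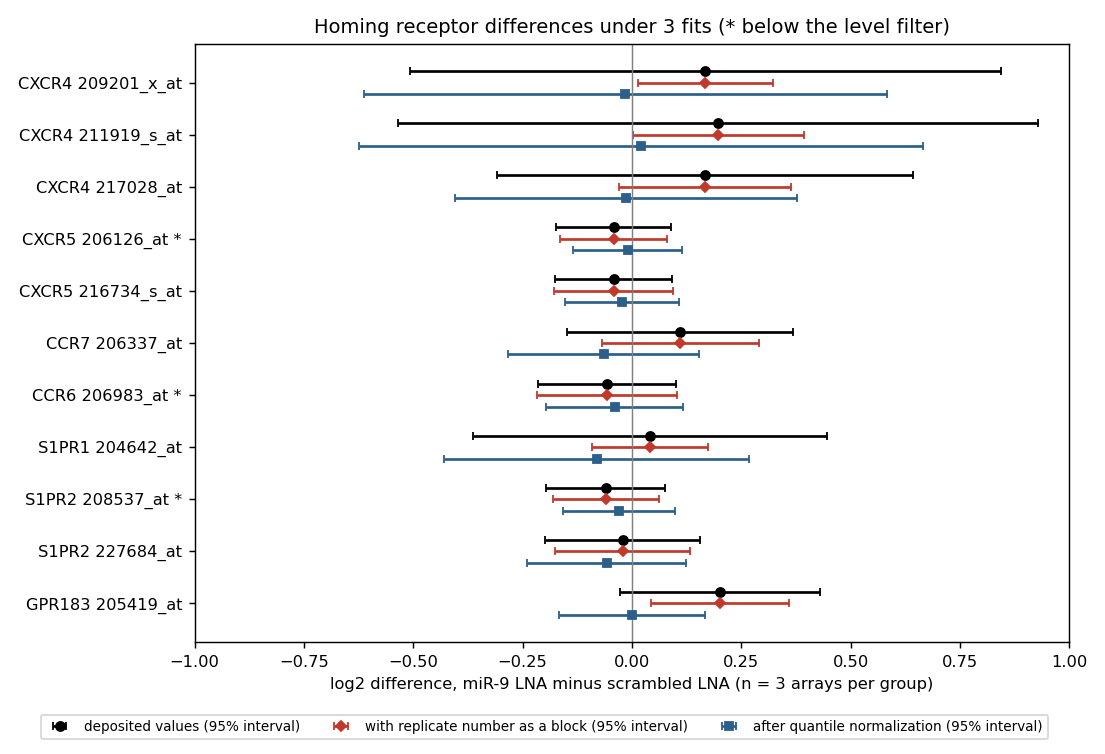
The log2 difference between miR-9 LNA and scrambled LNA arrays (3 per group) is plotted for each receptor probe set with its 95% interval, in the deposited values (black circles), with replicate number as a block (red diamonds) and after quantile normalization (blue squares). The intervals of CXCR4 and S1PR1 narrow with the block, and those of GPR183 and 2 CXCR4 probe sets then lie above 0, while after quantile normalization all 11 intervals include 0.

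Deviations from the group means correlated at r = 0.634 between the arrays numbered 3. For numbers 1 and 2 the correlations were 0.231 and 0.193, little above the highest between different numbers, 0.168. The comparison was also made within numbers, a pairing that was taken from these values and that no label states. With replicate number as a block, the SE of the CXCR4 difference fell from 0.31 to 0.08 at 211919_s_at and from 0.29 to 0.06 at 209201_x_at, and that of S1PR1 from 0.17 to 0.05. The limma unadjusted p was then 0.0204 for GPR183, 0.0381 for CXCR4 209201_x_at and 0.0487 for CXCR4 211919_s_at, and the adjusted p was 0.166, 0.200 and 0.217. Of all tested probe sets 22.8% had a limma unadjusted p under 0.05 in this fit, against 14.4% without the block, and 0% passed after adjustment. With the block after quantile normalization, the limma unadjusted p of GPR183 was 0.988 and that of the CXCR4 probe sets lay between 0.712 and 0.804. Within same-numbered pairs GPR183 differed by 0.32, 0.13 and 0.16, and CXCR4 217028_at by 0.37, 0.10 and 0.03. The widest gap was that of the pair holding scrambled replicate 1 for both genes. Of the 8 tested receptor probe sets 5 lay higher in 3 of 3 pairs, beside 40.2% of all tested probe sets. These were the 3 of CXCR4, which read 1 gene, and those of S1PR1 and GPR183. The share covers probe sets of all levels, so the count is not read as an excess.

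The receptors were also read against other probe sets of their level, since the difference between the groups followed level across the array. Among 1365 probe sets of the same level bin, out of 20 equal bins, the median difference was 0.20 with an interquartile range from 0.14 to 0.25, and GPR183 (0.20) lay above 50.3% of them. CXCR4 211919_s_at (0.20), in the same bin, lay above 48.6%, and CXCR4 209201_x_at (0.17), also in it, above 33.8%. For CXCR4 217028_at and CCR7, in the brightest bin with a median of 0.17, these shares were 46.7% and 18.8%. S1PR1 (0.04) lay above 19.0% of its bin, whose median was 0.15 and whose lower quartile was 0.07. The bright receptors thus lay at or below the middle of their bins.

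**Figure D3:**
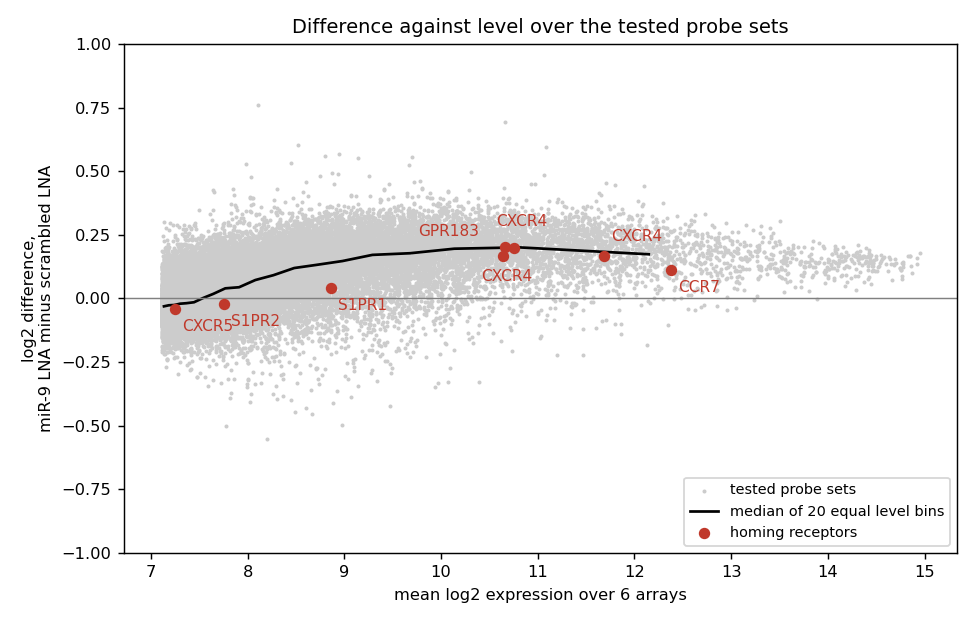
The log2 difference between the groups (vertical axis) is plotted against the mean log2 expression over 6 arrays (horizontal axis) for the 27307 tested probe sets in grey, with the median of 20 equal level bins as a black line and the 8 tested receptor probe sets in red. GPR183 and 2 CXCR4 probe sets sit near the line at 0.17 to 0.20, and CXCR4 209201_x_at, CCR7 and S1PR1 sit below it. After quantile normalization the receptor differences lie between -0.08 and 0.02.

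CXCR4 and S1PR1 varied far more between replicate numbers than between treatments. Averaged over the 2 arrays of each number, CXCR4 211919_s_at was at 10.20 for number 1, 10.88 for number 2 and 11.19 for number 3, a span of 1.00 on the log2 scale, or 2.00-fold. The span was 0.93 (1.90-fold) at CXCR4 209201_x_at, 0.63 (1.55-fold) at CXCR4 217028_at and 0.54 (1.45-fold) at S1PR1. The numbers are labels without an order, and what arrays of a number share is not stated in the labels. Over the 6 arrays the range was at least 1 at 2 of the 8 tested receptor probe sets, both of CXCR4, beside 0.897% of all tested probe sets. It was at least 0.5 at 4 of the 8, those of CXCR4 and S1PR1, beside 18.0%. The CXCR4 probe sets read 1 gene and moved together, and the shares cover probe sets of all levels, so these counts are not read as a trait of the receptors.

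Replicate number held 99.0% of the sum of squares at S1PR1, 94.6%, 92.1% and 84.6% at CXCR4 209201_x_at, 211919_s_at and 217028_at, and 67.4% at CCR7. The group held 0.825% at S1PR1, between 4.42% and 8.81% at CXCR4 and 14.8% at CCR7. At GPR183 number and group held 47.8% and 44.3%. The medians over all tested probe sets were 40.2% for number and 24.7% for group. Number divides the arrays into more parts than group does, so it holds a larger share on average even without an effect. At least 90% was held by number at 3 of the 8 receptor probe sets, all of CXCR4 or S1PR1, beside 4.64% of all tested probe sets. After quantile normalization it was held at 5 of the 8, those of CXCR4, S1PR1 and GPR183, beside 8.98%. Both arrays numbered 1 were the lowest and both numbered 3 the highest at 4 of the 8, the 3 of CXCR4 and that of S1PR1, beside 4.25%.

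In the deposited values, with the level filter and equal array weights, no receptor passed a limma F test of the replicate number, which was added after the data were seen. The same values gave 3 receptor probe sets without the level filter, 3 with trend and robust variance and 4 with array weights. The adjusted p was 0.0584 at CXCR4 209201_x_at, 0.0664 at 211919_s_at, 0.105 at 217028_at and 0.0776 at S1PR1, where limma called 0.0476% of tested probe sets. After quantile normalization the 3 CXCR4 probe sets and S1PR1 passed, with limma adjusted p of 0.0203, 0.0173, 0.0312 and 0.0447, beside 2.11% of tested probe sets. CCR7, GPR183, CXCR5 and S1PR2 did not pass in either (limma adjusted p from 0.269 to 0.841).

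A measure of RNA integrity went with the number. The 3′ minus 5′ difference of the ACTB control probe sets was 0.87 and 0.58 on the arrays numbered 1 (miR-9 LNA, then scrambled), 0.40 and 0.36 on those numbered 2 and 0.22 and 0.24 on those numbered 3. By number it was thus largest where CXCR4 and S1PR1 were lowest. Within number 1 it was larger on the miR-9 LNA array, while CXCR4 and S1PR1 were lower on the scrambled array. The same difference for GAPDH was 0.06 and 0.19 on the arrays numbered 1 and between -0.05 and 0.01 on the others. The part of RNA integrity in the receptor levels was not tested.

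**Figure D4:**
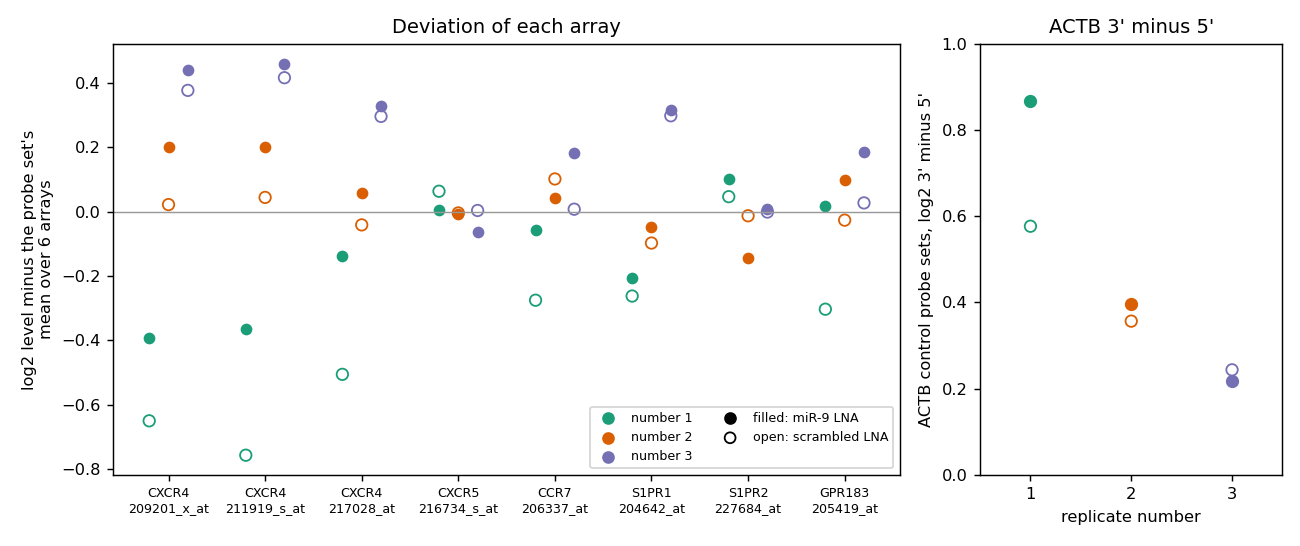
The left panel plots the log2 level of each array minus the mean over 6 arrays for the 8 tested receptor probe sets, coloured by replicate number and filled for miR-9 LNA or open for scrambled LNA. The right panel plots the ACTB 3′ minus 5′ log2 difference of the same arrays. CXCR4 and S1PR1 separate by number, from both arrays numbered 1 below to both numbered 3 above, while the ACTB difference is largest, at 0.87 and 0.58, for number 1.

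The receptors did not all follow each other over the 6 arrays. As a description over 6 arrays that share their scaling, the Pearson correlation between CXCR4 217028_at and S1PR1 was 0.92, between CXCR4 217028_at and GPR183 0.89 and between CCR7 and GPR183 0.90. After quantile normalization these were 0.93, 0.92 and 0.85. CXCR5 216734_s_at ran the other way, at -0.94 with CCR7, -0.93 with GPR183 and -0.85 with CXCR4 217028_at, and at -0.62, -0.72 and -0.74 after quantile normalization, over arrays that spanned 0.13 at CXCR5. S1PR2 227684_at correlated with CXCR4 217028_at at -0.34, and at -0.57 after quantile normalization. By the rule of taking the receptor probe set of highest signal, CCR7 was set against the other genes, and the 3 most like it of 12366 were LSM14A (r = 0.99), IFRD2 (0.98) and LEAP2 (0.98). Over the same 6 arrays 267 genes reached r above 0.9 with CCR7, and after quantile normalization the values for LSM14A, IFRD2 and LEAP2 were 0.87, 0.94 and 0.57.

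Around the receptors, 7 lists of genes were read, from ligands to signal transduction. Of their tested genes 0 passed a limma adjusted p under 0.05, as of the 12367 genes tested. Of those 12367 genes 70.0% lay higher in the deposited values, with a median of 0.08, and 49.6% after quantile normalization. Each list's count is given beside these shares, which cover genes of all levels. The difference between the groups followed level, and no list was compared with genes of similar level, so the counts are not read as traits of the lists. The ligands lay low: CXCL12 was at 7.09 ± 0.07 under the miR-9 LNA and 7.19 ± 0.06 in the scrambled group, a difference of -0.09 ± 0.07, and CXCL13, CCL19, CCL21 and CCL20 lay below the filter. Of the enzymes and transporters of the lipid ligands, 10 genes were tested, 6 of them higher and 4 lower, and their median was 0.16. After quantile normalization 5 of the 10 lay higher. The differences were 0.19 ± 0.05 for SGPP1, an S1P phosphatase (limma adjusted p = 0.296), 0.26 ± 0.10 for PLPP1, a lipid phosphatase, and 0.29 ± 0.13 for ACER3, a ceramidase. After quantile normalization they were 0.04, 0.09 and 0.21. The oxysterol enzymes CH25H and CYP7B1, which make the GPR183 ligand, lay below the filter.

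Other chemokine, S1P and homing receptors were mostly dim, with 14 of the 25 read on the array below the filter. Among the 11 tested, 5 lay higher and 6 lower, around a median of -0.003, beside 70.0% higher among all genes, and 4 lay higher after quantile normalization. CNR2, a cannabinoid receptor of B cells, differed by -0.10 ± 0.07, S1PR3 by 0.19 ± 0.14 and ACKR2, a chemokine scavenger, by -0.09 ± 0.06 (limma adjusted p from 0.521 to 0.541).

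G proteins, RGS proteins, receptor kinases and arrestins, which carry or end the receptor signal, had 11 of 22 tested genes higher, beside 70.0% of all genes, with the median at 0.004. GNB2, a beta subunit, differed by -0.35 ± 0.10, GNAS by 0.25 ± 0.07 and GNA13, the alpha subunit that couples to S1PR2, by 0.25 ± 0.08 (limma adjusted p = 0.296 each). After quantile normalization these were -0.52, 0.08 and 0.06, with 6 of the 22 higher. Of 27 migration effectors 23 lay higher, beside 70.0% of all genes, with a median of 0.09 close to that of all genes, and 15 lay higher after quantile normalization. PIK3CG, a lipid kinase activated by G protein beta-gamma subunits, differed by 0.22 ± 0.07 and PAK2, a cytoskeletal kinase, by 0.20 ± 0.07 (limma adjusted p = 0.296 each), and after quantile normalization by 0.03 and 0.05.

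Of 16 regulators of receptor transcription, turnover and egress 12 lay higher, near the share of all genes, with a median of 0.15, and 10 lay higher after quantile normalization. STAM, an endosomal sorting adaptor, differed by 0.20 ± 0.07, FOXO1, a transcription factor of homing receptor genes, by 0.18 ± 0.07 and RAB5A, an early endosome GTPase, by 0.34 ± 0.15 (limma adjusted p from 0.307 to 0.356). After quantile normalization these were 0.07, 0.10 and 0.14. CD69, which draws S1PR1 from the surface, lay below the filter. Of 16 adhesion and homing molecules 9 lay higher, beside 70.0% of all genes, with a median of 0.06. After quantile normalization 7 lay higher, beside 49.6%. ALCAM differed by 0.25 ± 0.07, the integrin ITGA4 by 0.21 ± 0.07 and ITGB1 by 0.22 ± 0.09, and after quantile normalization by 0.06, 0.04 and 0.04.

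**Figure D5:**
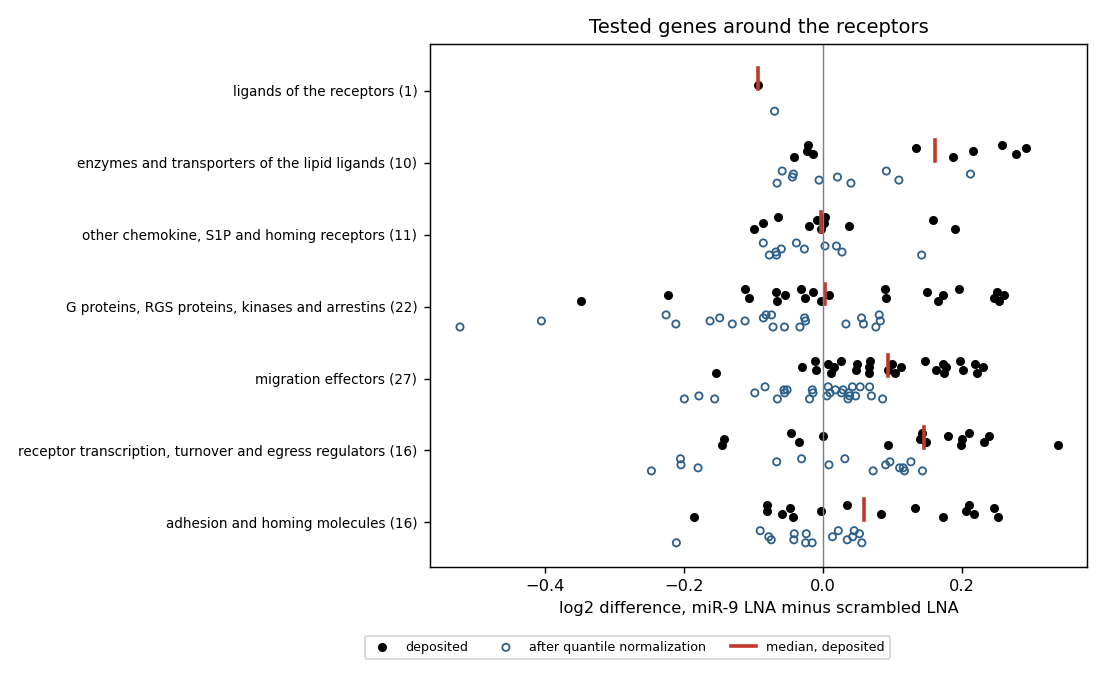
The log2 difference between miR-9 LNA and scrambled LNA is plotted for each tested gene of 7 lists (number of tested genes in brackets) in the deposited values (black, with the list median in red) and after quantile normalization (blue, open). Most lists sit at or above 0 in the deposited values and nearer to 0 after quantile normalization, with GNB2 the lowest point at -0.35 and -0.52.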

How the data were processed

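Per the submitters' processing notes, the deposited log2 values were made by the authors with affy and RMA, of versions not given in the sources used here. How many arrays there are, 3 per group, limits the precision.

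Controls, 62 of 54675 probe sets, were set aside. Probe sets with a mean of at least 7.11 were tested with limma 3.58.1 in R 4.3.3 (lmFit, eBayes, two-sided, Benjamini-Hochberg adjustment over 27307, threshold 0.05, no replicate block), and receptors below it were read from a fit of all 54613. Names came from the platform annotation, in which 41091 probe sets had 1 symbol, 1801 several and 11721 none. Of those with 1 symbol, 41037 were found by Entrez ID in the GRCh38.p14 table. Lists used the brightest tested probe set of a gene. Named were all receptor probe sets, up to 3 genes of smallest p per list and the 3 genes most like the brightest receptor. A gene of the migration list that the rule names is not reported here. The members and lists were chosen with earlier results of these data known.

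Deviations from group means correlated at r = 0.231, 0.193 and 0.634 between same-numbered arrays and from -0.429 to 0.168 otherwise, which is where the pairing is taken from, since no label states one. Alternatives covered filter, normalization, variance model, weights, block and leaving out each array. The fit was tested on simulated data. Figures used matplotlib 3.10.9.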

Additional observations from a re-analysis of the deposited data

How the results depend on the processing

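No tested probe set, receptor or listed gene passed limma's threshold for the treatment in any alternative run, and the lowest adjusted p of a receptor was 0.166, for GPR183 with the replicate block, which changed no call. At an unadjusted p under 0.05 limma had 3926 probe sets, and 6218 with the block and 1243 after quantile normalization. Of 157 receptor values recomputed, 22 changed sign. After quantile normalization, with or without the replicate block, the differences were -0.015 at CXCR4 209201_x_at, -0.013 at CXCR4 217028_at, -0.064 at CCR7, -0.080 at S1PR1 and -0.00083 at GPR183. After cyclic loess they were -0.029 and -0.022 at these CXCR4 probe sets, -0.073 at CCR7 and -0.092 at S1PR1, and with array medians removed S1PR2 227684_at was at 0.0052. Leaving out each array in turn, CXCR4 209201_x_at ranged from -0.12 to 0.40, 211919_s_at from -0.13 to 0.45, 217028_at from -0.044 to 0.36, S1PR1 from -0.11 to 0.20 and S1PR2 227684_at from -0.078 to 0.045. In single arrays left out, CXCR4 209201_x_at was at -0.011 without miR-9 LNA replicate 3 and S1PR2 227684_at at 0.045 without miR-9 LNA replicate 2. CXCR5 and CCR6 kept their sign in each alternative run, though CCR6 was at -0.0078 without scrambled replicate 1. Within same-numbered pairs CCR6 differed by -0.23, 0.02 and 0.04, so its sign came from the pair holding that array.

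The limma test of the replicate number, added after the data were seen, depended on the setting. It called 0 of the 8 tested receptor probe sets and 13 of all in the deposited values, where 4394 had an unadjusted p under 0.05. Without the level filter it called 3 and 312, at the 75th percentile filter 0 and 0, after quantile normalization 4 and 575, after cyclic loess 4 and 894, and with array medians removed 0 and 0. With trend and robust variance it called 3 and 829 and with array weights 4 and 2321. Leaving out each array in turn it called from 0 to 6 receptor probe sets and from 0 to 11378 of all, the highest without miR-9 LNA replicate 1; without scrambled replicate 1 it called 4 and 7006. Leaving out an array leaves a number with 1 array, assumed to vary like the others. The cause was not tested. Low signal limits what can be seen of CXCR5, CCR6 and S1PR2 208537_at.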

Other observations

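CCR4, a chemokine receptor of T cells that binds CCL17, is named here after its values were seen. CCR4 was at 9.57, 9.98 and 10.30 on miR-9 LNA replicates 1, 2 and 3 and at 9.31, 9.72 and 10.34 on the scrambled replicates. Both arrays numbered 3 were the highest and both numbered 1 lay below those numbered 2, as at CXCR4 and S1PR1. Other tested genes of the lists showed this order too, among them the receptors CXCR3, CXCR6 and GPR132, the signalling genes RGS2, RGS14 and RGS16, and the marker FSCN1. Both arrays numbered 1 were the lowest and both numbered 3 the highest at 4.25% of all tested probe sets. The CCR4 difference between the groups was 0.16 ± 0.27 (limma adjusted p = 0.796), and 0.003 after quantile normalization.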
